A study of Mus musculus with 12 samples.

Results

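Cyr61, Apold1, Klf2, Klf4, Klf10, Ier2, Ier5 and Btg2 are 8 genes whose transcripts rise within minutes of a stimulus in many cell types. They were followed here in 12 RNA sequencing libraries of mouse striatum, the forebrain nucleus that links reward to action. The 8 were named by hand from a count table of 24421 genes and were selected on their varenicline against saline values in these same libraries. The levels by treatment are therefore described without a test. All 8 were among the 15148 genes with enough counts to be analysed.

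All mice were naive male C57BL/6J animals of 1 inbred strain, and no age is given. Of the 12 libraries, 6 came from mice injected with saline and 6 from mice injected with varenicline at 2 mg/kg. Varenicline is a partial agonist of nicotinic acetylcholine receptors that is prescribed to people who want to stop smoking. Every animal, in both groups, drank 20% ethanol in limited-access sessions of 2 h that began 3 h into the dark phase. There were 3 cycles of 2 days. All mice had saline before the second session of the first cycle, and the assigned injection was given 30 min before the second session of each of the other 2 cycles. The striatum of both hemispheres was taken at the end of the last session, after cervical dislocation. No group without ethanol is part of the comparison.

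These genes are immediate early genes: their transcription needs no new protein synthesis, and their mRNAs are short-lived. Serum response factor, CREB and the growth factor and stress kinase cascades are their usual inducers. In brain, some of them respond in neurons to synaptic activity, and others respond mainly in the vessel wall, to flow, stretch, hypoxia or inflammatory signals. In bulk tissue the cell of origin of a transcript is not seen, and fewer cells of a type cannot be told apart from less RNA per cell.

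Promoters of 6 of the 8 genes were found in the RefSeq table for GRCm38.p6, the same assembly as mm10. Those of Cyr61, Apold1, Klf4 and Btg2 are printed here so that the letters before their starts can be read beside their levels. Those of Klf2 and Ier5 were searched in the same way and are not printed. Searched on both strands in the 250 bases before the start were TGACG, the core of the cAMP response element, its palindrome TGACGTCA, which holds 2 overlapping copies of that core, the TATA element TATAAA, and the CArG box bound by serum response factor. Capitals mark every match to these 4 motifs. Also searched on both strands, and not capitalised, were GGGCGG for GC boxes, CACCC for KLF sites, GGAATG for TEAD sites and TGANTCA for AP-1 sites. The stretches are written 5′ to 3′ along the transcribed strand. They lie at chr3:145649986-145650235 on the minus strand for Cyr61, which RefSeq lists as Ccn1, chr6:134981751-134982000 on the plus strand for Apold1, chr4:55532476-55532725 on the minus strand for Klf4 and chr1:134079156-134079405 on the minus strand for Btg2.
Cyr61: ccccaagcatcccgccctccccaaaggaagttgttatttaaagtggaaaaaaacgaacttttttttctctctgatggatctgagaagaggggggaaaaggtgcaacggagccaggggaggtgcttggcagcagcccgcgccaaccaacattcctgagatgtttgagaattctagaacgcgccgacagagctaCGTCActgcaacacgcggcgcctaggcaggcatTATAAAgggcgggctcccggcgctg
Apold1: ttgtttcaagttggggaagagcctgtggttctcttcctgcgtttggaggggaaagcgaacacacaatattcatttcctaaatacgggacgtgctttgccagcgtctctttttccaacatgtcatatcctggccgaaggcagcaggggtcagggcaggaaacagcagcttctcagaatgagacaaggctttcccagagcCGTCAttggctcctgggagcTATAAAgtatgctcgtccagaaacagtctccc
Klf4: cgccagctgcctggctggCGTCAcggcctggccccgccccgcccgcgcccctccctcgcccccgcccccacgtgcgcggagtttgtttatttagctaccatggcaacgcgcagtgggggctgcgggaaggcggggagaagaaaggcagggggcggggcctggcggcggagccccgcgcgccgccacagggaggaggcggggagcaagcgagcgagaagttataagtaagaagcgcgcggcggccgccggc
Btg2: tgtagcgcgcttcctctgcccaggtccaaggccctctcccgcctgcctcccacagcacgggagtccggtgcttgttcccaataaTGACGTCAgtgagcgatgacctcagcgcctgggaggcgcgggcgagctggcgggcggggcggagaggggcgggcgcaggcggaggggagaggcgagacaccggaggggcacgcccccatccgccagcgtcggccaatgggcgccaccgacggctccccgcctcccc

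TGACG was found in 5 of the 6 promoters, those of Cyr61, Apold1, Klf2, Klf4 and Btg2, and in 17.8% of the 32851 promoter windows of the same length in the table. In Cyr61 and Apold1 it began 58 and 52 bases before the start, and TATAAA began 25 and 32 bases before it. These starts are those of RefSeq. The GENCODE vM21 annotation begins Apold1 earlier, at chr6:134981718, so the Apold1 window lies inside that annotated gene. TATAAA was in 2 of the 6 and in 12.4% of all windows. The full palindrome was in Btg2 alone, 166 bases before the start, and in 1.55% of all windows. No CArG box was in any of the 6 windows, against 1.47% of all windows, which says only that these letters are not in this stretch. The windows differed in base composition, from 50.8% G and C in Apold1 to 74% in Klf4. GGGCGG was in 5 of the 6, against 32.7% of all windows, GGAATG in Cyr61 alone (12.6% of all), CACCC in Klf2 alone (52.0% of all) and TGANTCA in 0 (6.75% of all). These matches are descriptions of sequence and were not tested against the expression values.

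Library totals ran from 13340420 to 27917715 counts. The lowest member count was 30, for Ier2, and the highest 1818, for Ier5, so Ier2 carries the largest counting error. In the deposited FPKM values, which are scaled by length and allow genes to be compared, Ier5 was the most abundant member in saline libraries at 20.3 ± 1.49 (SD, n = 6). Klf10 followed at 6.79 ± 0.986, Klf2 at 4.08 ± 1.35, Btg2 at 3.63 ± 0.679, Ier2 at 2.54 ± 0.437, Cyr61 at 2.00 ± 0.188, Klf4 at 1.94 ± 0.486 and Apold1 at 1.13 ± 0.134. Ier5 and Klf10 did not overlap in FPKM over the saline libraries, and neither did Klf4 and Apold1. All other neighbours in this order overlapped.

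One library stood apart. In varenicline 6 every one of the 8 genes was at its highest level of all 12 libraries, and each was above the highest saline value. Over all genes tested, 9.93% had their highest value in that library. Varenicline 1 came next, with 5 of the 8 above the saline range. In the other 4 varenicline libraries between 1 and 2 members were above the saline range and between 1 and 3 below it. Varenicline 6 also differed from its group in tissue markers: its score for 14 genes of cortical excitatory neurons, a mean log2 CPM, was 5.55, within the saline range of 4.90 to 5.64, where the other 5 varenicline libraries ran from 3.05 to 4.55. Its scores for oligodendrocytes (8.42) and for fibroblasts and meninges (2.25) were the lowest of all 12 libraries. Its score for striatal projection neurons, 7.85, was below the 8.20 to 8.55 of the other varenicline libraries and within the saline range of 7.79 to 8.40. Varenicline 1, the library with the fewest counts, differed in other markers. Its scores for fibroblasts and meninges (3.15) and for septal and pallidal neurons (3.63) were the highest of all 12 libraries. Its microglia score (5.49) was the lowest. The part of these differences in the results was not tested.

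**Figure D1:**
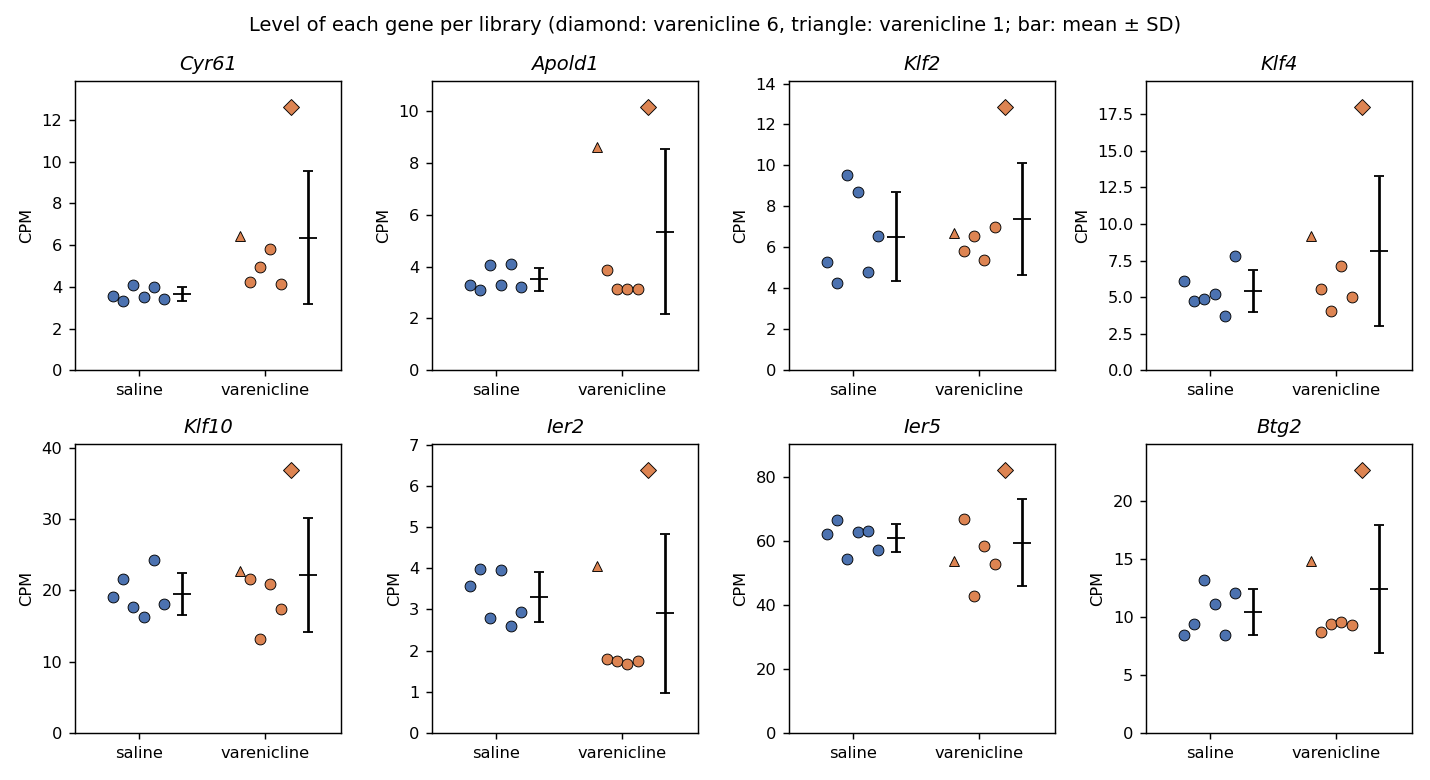
Level of each of the 8 genes in CPM (the usual depth-scaled count, with TMM scaling) for the 6 saline and 6 varenicline libraries, 1 point per library, with the mean and SD beside the points. The diamond, varenicline 6, is the highest point in all 8 panels, and only for Cyr61 do all 6 varenicline points lie above all saline points.

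Cyr61 was the only member whose groups did not overlap. It encodes CCN1, a secreted protein of the extracellular matrix that binds integrins and is a standard target of serum response factor and of the Hippo effector YAP. The gene (ENSMUSG00000028195, chr3:145646971-145649985, mm10) had a lowest, median and highest level of 3.33, 3.54 and 4.09 CPM in saline libraries and of 4.11, 5.39 and 12.6 CPM in varenicline libraries. The gap between the groups was thus narrow, 4.09 against 4.11 CPM, and the top of the varenicline range was varenicline 6, at 3.45 times the saline mean. Saline libraries averaged 3.65 ± 0.321 CPM and varenicline libraries 6.36 ± 3.19 CPM (SD, n = 6 each), a log2 fold change of 0.79 (SE 0.24). Without varenicline 6 the log2 fold change was 0.49 (SE 0.14), and the other 5 libraries averaged 5.11 ± 1.00 CPM. Of all genes tested, 0.429% lay wholly above the saline range in this way and 0.33% wholly below. Cyr61 was picked with this contrast in view, so nothing is read from its being among them.

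Apold1, a gene of activated endothelium whose product carries an apolipoprotein L domain, was high in 2 libraries and flat in the rest. Its levels (ENSMUSG00000090698, chr6:134982001-134986836) were 3.11, 3.29 and 4.09 CPM in saline libraries, again as lowest, median and highest, and 3.13, 3.50 and 10.2 CPM with varenicline. Varenicline 6 had 10.2 CPM and varenicline 1 had 8.64 CPM, while the remaining 4 libraries lay between 3.13 and 3.86 CPM, inside the saline range. The log2 fold change was 0.58 (SE 0.29), with 3 of 6 libraries above the saline mean, and it was 0.30 (SE 0.24) without varenicline 6.

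Klf4 and Klf2 are Krüppel-like zinc finger transcription factors that laminar flow induces in endothelial cells; Klf4 is also a pluripotency factor. Klf4 (ENSMUSG00000003032, chr4:55527137-55532475) had 3.72, 5.03 and 7.84 CPM in saline libraries and 4.02, 6.36 and 18.0 CPM in varenicline libraries. The 2 highest varenicline values were again those of varenicline 6 and varenicline 1, at 18.0 and 9.15 CPM, and the other 4 lay within the saline range. Its log2 fold change was 0.58 (SE 0.31), and 0.19 (SE 0.21) without varenicline 6. Klf2 (ENSMUSG00000055148, chr8:72319062-72321654) had 4.24, 5.93 and 9.52 CPM with saline and 5.37, 6.62 and 12.8 CPM with varenicline. It was the most variable member among saline libraries, with a coefficient of variation of 33.3%, and 5 of the 6 varenicline libraries fell inside that spread. The log2 fold change was 0.17 (SE 0.24), and it turned to -0.05 (SE 0.20) without varenicline 6. It was 0.07 without saline 2, 0.09 without saline 5, 0.28 without saline 4 and 0.32 without saline 3, so single saline libraries moved it as well.

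Klf10, the TGF-beta inducible early gene TIEG1, is a repressor of the same zinc finger family. Its lowest, median and highest levels (ENSMUSG00000037465, chr15:38291464-38300711) were 16.3, 18.6 and 24.3 CPM with saline and 13.2, 21.3 and 36.9 CPM with varenicline. Varenicline 6 was the 1 library above the saline range and varenicline 3 the 1 below it. The log2 fold change of 0.18 (SE 0.19) became -0.02 (SE 0.13) without varenicline 6 and 0.30 without varenicline 3.

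Ier2, a small nuclear immediate early protein, lay on both sides of the saline range in the varenicline group. In saline libraries its levels (ENSMUSG00000053560, chr8:84661331-84662852) were 2.59, 3.26 and 3.99 CPM. Varenicline 2 to 5 lay between 1.67 and 1.81 CPM, all 4 below the lowest saline value, while varenicline 1 at 4.06 CPM and varenicline 6 at 6.39 CPM lay above the highest. The group means, 3.31 ± 0.607 and 2.90 ± 1.94 CPM, gave a log2 fold change of -0.21 (SE 0.32), although no varenicline library lay near the varenicline mean. It was -0.61 (SE 0.24) without varenicline 6, -0.33 without varenicline 1, and between -0.10 and -0.09 without any 1 of varenicline 2 to 5.

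Ier5, a partner of the phosphatase PP2A that acts on heat shock factor HSF1, and Btg2, an antiproliferative protein that recruits the CCR4-NOT deadenylase to mRNAs, had overlapping groups. Ier5 (ENSMUSG00000056708, chr1:155096367-155099636) had 54.3, 62.5 and 66.5 CPM with saline and 42.8, 56.0 and 82.2 CPM with varenicline. Here 3 varenicline libraries were below the saline range, 2 were above it, and the log2 fold change was -0.04 (SE 0.12). Without varenicline 6 it was -0.14 (SE 0.09), without varenicline 3 it was 0.05, and the other left-out libraries gave values between these. Btg2 (ENSMUSG00000020423, chr1:134074865-134079155) had 8.42, 10.3 and 13.2 CPM with saline and 8.75, 9.50 and 22.7 CPM with varenicline. Its values in varenicline 1 and 6, 14.8 and 22.7 CPM, were above the saline range, and the other 4 lay between 8.75 and 9.58 CPM. The log2 fold change was 0.24 (SE 0.22), and -0.02 (SE 0.15) without varenicline 6.

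**Figure D2:**
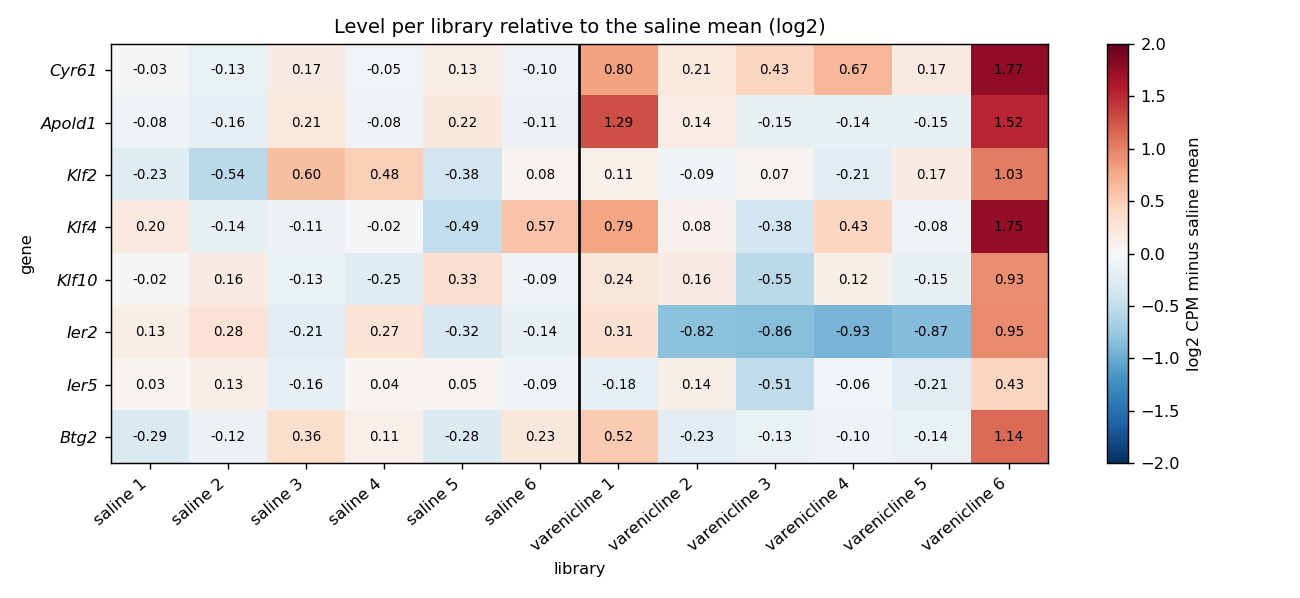
Difference of each library (columns) from the saline mean, in log2 CPM, for each of the 8 genes (rows); red is above and blue below the saline mean. The varenicline 6 column is red throughout, from 0.43 for Ier5 to 1.77 for Cyr61, and Ier2 lies between -0.82 and -0.93 in varenicline 2 to 5.

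Read as a list, 6 members had a higher mean with varenicline and 2 a lower one, with a median log2 fold change of 0.21 beside 0.01 over all genes tested. Without varenicline 6 the split was 3 higher and 5 lower, with a median of -0.02. Cyr61 was the single member above the saline mean in all 6 varenicline libraries. None of the 8 passed an adjusted p of 0.05 in edgeR's quasi-likelihood test, as for all 15148 genes (0%). At an unadjusted p under 0.05, edgeR had 1100 higher genes (7.26%) and 1458 lower ones (9.63%), among them 1 member, Cyr61. At an adjusted p under 0.05, as for the count of 0 above, DESeq2 called 405 of all genes and limma-voom 2099. Without varenicline 6 edgeR called 541 genes higher (3.55%) and 1087 lower (7.14%), and Cyr61 was again the 1 member among them. Since the members were picked with this contrast known, these counts are a description.

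The score of cortical markers had a lower mean with varenicline, a difference that did not pass with all 12 libraries. In log2 CPM it was 5.27 ± 0.292 in saline and 4.17 ± 0.877 in varenicline libraries (n = 6 each, a difference of -1.10; two-sided exact permutation p = 0.0173, adjusted p = 0.0693 over 4 scores), and without varenicline 6 the difference of -1.37 had an exact permutation p of 0.00216 (adjusted p = 0.00866). The summed level of these 14 markers was 978 to 1611 CPM in saline and 303 to 1442 CPM in varenicline libraries. With the cortical score as a covariate all 8 members were higher with varenicline, with log2 fold changes of 1.29 for Cyr61, 1.23 for Apold1, 1.20 for Klf4, 0.71 for Klf10, 0.63 for Btg2, 0.43 for Ier2, 0.40 for Klf2 and 0.28 for Ier5. With that covariate and without varenicline 6 they were 0.72 for Cyr61, 1.10 for Apold1, 0.68 for Klf4, 0.63 for Klf10, 0.21 for Ier5, 0.08 for Btg2, -0.07 for Ier2 and -0.45 for Klf2. The covariate differs between the groups itself, so part of the treatment difference and of the tissue difference cannot be told apart in these fits.

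**Figure D3:**
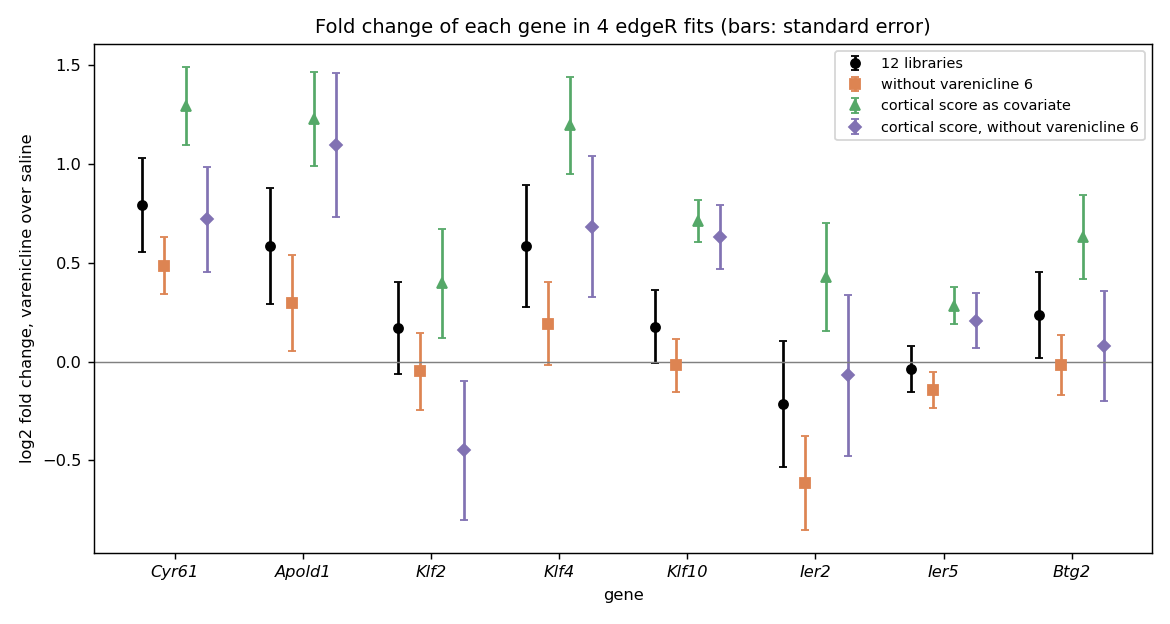
Log2 fold change of each gene, varenicline over saline, in 4 edgeR fits, with bars of 1 standard error. The orange squares, without varenicline 6, lie below the black circles for all 8 genes, and the green triangles, with the cortical score as covariate, lie above them for all 8.

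The next comparison set the members beside vascular cell content and beside activity genes from library to library. The vascular scores are made of cell type markers, so they do not read induction inside vessel cells. Vascular and neuronal induction of the members can therefore not be told apart by these scores. Endothelial markers were all present, and the score of 16 genes such as the tight junction gene Cldn5 (41.0 and 39.4 CPM) and the VEGF receptor gene Flt1 (92.0 and 87.6 CPM) was 4.52 ± 0.0782 in saline and 4.52 ± 0.126 in varenicline libraries (n = 6 each; exact permutation p = 0.918, adjusted p = 0.918 over the 4 scores). The difference of -0.01 stayed between -0.03 and 0.04 over all alternatives tried. The summed level of these 16 genes was 478 to 521 CPM with saline and 465 to 537 CPM with varenicline. By gene, 7 of the 16 had higher and 9 lower means, Cldn5 and Flt1 having lower ones, and 0 passed in edgeR. At an unadjusted edgeR p under 0.05 were 2 higher and 0 lower genes. Without varenicline 6, 1 was called higher and 0 lower. The score of 10 mural cell genes was 4.28 ± 0.0971 and 4.30 ± 0.0826 (exact permutation p = 0.725, adjusted p = 0.918). Varenicline 1, with the second-highest Apold1 level, had the lowest endothelial score of all libraries, 4.30, and varenicline 6 the highest, 4.65.

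The neuronal activity score was read from 20 genes that synaptic activity raises, none of them a member. Several are immediate early genes, as the members are, and bulk tissue does not show which cells expressed them. The mean log2 CPM of the 20 genes was 4.90 ± 0.140 in saline and 4.97 ± 0.515 in varenicline libraries (exact permutation p = 0.771, adjusted p = 0.918). The score means were thus close, and the spread was wider with varenicline. By gene, 16 had higher and 4 lower means, with a median log2 fold change of 0.26. The lowest was Nr4a2 at -1.25, and at -0.25 with the cortical score as a covariate. The part of cortical content in the activity score was not tested. The 2 highest scores of all 12 libraries were those of varenicline 6 at 5.71 and varenicline 1 at 5.42, and the lowest was that of varenicline 3 at 4.30. These are the libraries with the highest and the lowest mean levels of the 8 members, 4.21, 3.50 and 2.76 in log2 CPM. Summed over the list, the level was 1171 to 1433 CPM with saline and 1039 to 2086 CPM with varenicline. With this score as a covariate the log2 fold changes were 0.66 for Cyr61 (SE 0.18), 0.33 for Apold1 (SE 0.17), 0.34 for Klf4 (SE 0.17) and -0.48 for Ier2 (SE 0.19), and those of the other 4 lay between -0.09 and 0.11.

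To take out the group means, each member and each score were centred on them and correlated over the 12 libraries, 32 relations in all. Centring leaves the distance of varenicline 6 from its group in place. That library also weighed on the contrast that chose the members, so the permutation p-values are not independent of that choice. With the neuronal activity score all 8 correlations were positive, from 0.37 for Klf2 to 0.86 for Ier2, with a median of 0.81. With the cortical score they ran from 0.28 for Klf2 to 0.93 for Klf10, with a median of 0.77. With the endothelial score they lay between -0.14 for Apold1 and 0.37 for Ier5, and with the mural score between -0.16 and 0.28. After adjustment over the 32 relations 1 passed, that of Klf10 with the cortical score (Pearson r = 0.93, permutation p = 0.00046, adjusted p = 0.0147; Spearman rho = 0.84, adjusted permutation p = 0.102). Without the 2 libraries farthest from the median of that score, varenicline 3 and 6, its r was 0.73 and did not pass, and without varenicline 6 it was 0.86 (adjusted permutation p = 0.104).

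For the neuronal activity score the smallest p belonged to Klf4 (r = 0.85, adjusted permutation p = 0.0534; rho = 0.67, adjusted permutation p = 0.310). Apold1 had an r of 0.85 (adjusted permutation p = 0.0856; rho = 0.66, adjusted permutation p = 0.311), and Ier2 an r of 0.86 (adjusted permutation p = 0.0817; rho = 0.80, adjusted permutation p = 0.149). None of the 8 relations with this score passed in this main setting. Without varenicline 6 their r ran from -0.13 for Klf2 to 0.73 for Apold1, with a median of 0.61, and without varenicline 3 and 6, the 2 farthest from the median, from -0.11 for Klf2 to 0.77 for Ier2. Among the 6 varenicline libraries r was between 0.68 for Klf2 and 0.94 for Apold1 (0.04 for Klf2 to 0.89 for Klf4 without varenicline 6), and among the 6 saline libraries between -0.62 for Cyr61 and 0.35 for Klf4; the difference between the groups was not tested. With the endothelial score, r without varenicline 6 was below 0 for 7 of 8 members, down to -0.74 for Cyr61 (adjusted permutation p = 0.296). The score of cortical markers and that of activity genes were both highest of the varenicline group in varenicline 6, and the part of each in these relations was not tested.

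**Figure D4:**
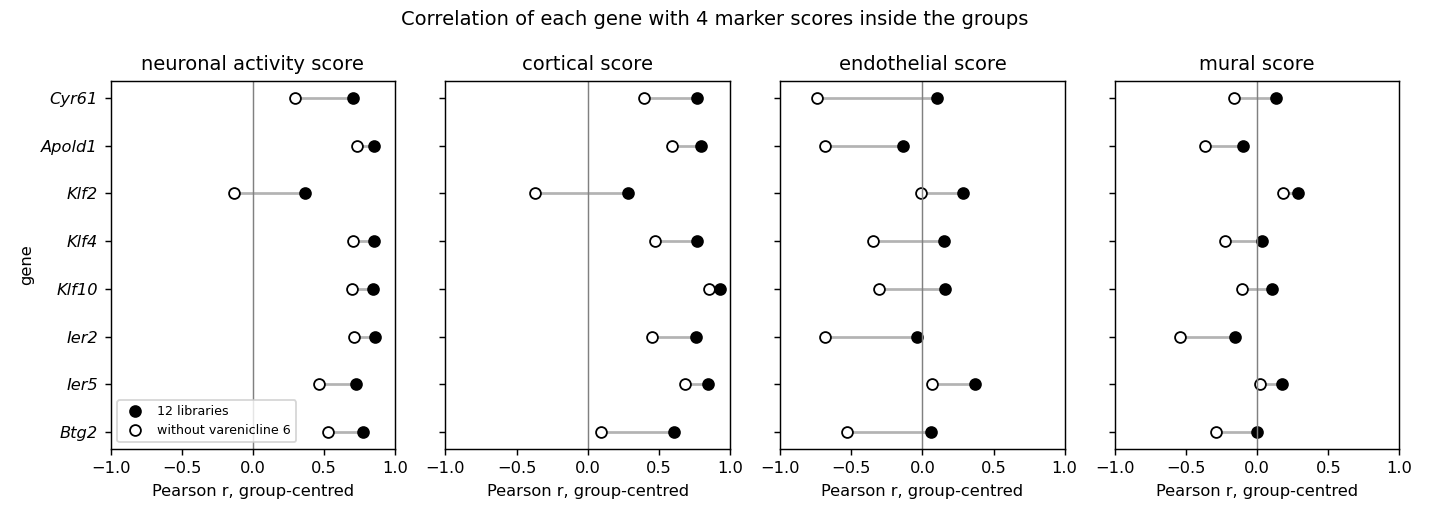
Pearson r, inside the groups, of each gene with 4 marker scores, over 12 libraries (filled) and without varenicline 6 (open). The filled points lie at 0.37 or higher for the neuronal activity score and at 0.37 or lower for the endothelial and mural scores, and the open points lie left of the filled ones for all 8 genes in each panel.

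Among themselves the members were alike over all 12 libraries, less so without varenicline 6, and not over the saline libraries. All 28 pairwise correlations of group-centred values were positive, with a median r of 0.71, and 25 were above 0.5. Without varenicline 6, 23 were positive, the median was 0.30 and 9 were above 0.5. The pairs that were most alike without that library were Klf10 with Ier5 (r = 0.73), Apold1 with Ier2 (r = 0.71), and Cyr61 and Btg2, each with Apold1 (r = 0.66 for both). Klf2 went against Klf10 there (r = -0.56) and with Btg2 (r = 0.63). Over the 6 saline libraries 13 pairs were positive and 15 negative, from -0.83 for Klf2 with Klf10 to 0.98 for Cyr61 with Apold1. Apold1 with Ier2, alike over all libraries, had -0.80 there. These values are descriptions over few libraries.

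Genes outside the list with the most similar pattern were looked for among 13330 named genes with at least 1 CPM on average. By mean group-centred r over the 8 members, Ern1, which encodes the unfolded protein sensor IRE1, came first at 0.78, followed by Kctd6 (0.78), the calcium-activated potassium channel gene Kcnn2 (0.78), the growth factor gene Pdgfb (0.78), Traf3 (0.78) and Myadm (0.77). Without varenicline 6 their mean r was between 0.38 for Pdgfb and 0.52 for Kcnn2. For single members the closest were Map2k3 for Cyr61 (r = 0.91, and 0.59 without varenicline 6), Slc25a22 for Apold1 (0.92 and 0.85), Simc1 for Klf2 (0.95 and 0.95) and Arnt for Klf4 (0.96 and 0.97). They were Adra1b, an adrenergic receptor gene, for Klf10 (0.96 and 0.92), Kcnn2 for Ier2 (0.93 and 0.85), Phospho1 for Ier5 (0.95 and 0.89) and Faap100 for Btg2 (0.91 and 0.87). The cortical marker gene Emx1 was second for Ier5 (0.93 and 0.86). All of these were taken from the top of a search over 13330 genes in 12 libraries, so their high r is a description only. Group-centred r also leaves out the difference between the group means.

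Relatives of the members did not follow one pattern. Of the 4 CCN family genes tested, Cyr61 alone had a higher mean with varenicline, and its relatives had lower means. Nov had -1.004 on the log2 scale (27.6 ± 10.5 and 13.9 ± 8.11 CPM, below the saline mean in all 6 libraries; edgeR adjusted p = 0.180), Wisp1 had -0.66 (adjusted p = 0.378) and Ctgf, the other classical YAP target of the family, had -0.55 (36.5 ± 5.59 and 25.1 ± 13.8 CPM; adjusted p = 0.346). With the cortical score as a covariate these 3 were at -0.10 for Nov, 0.32 for Wisp1 and 0.03 for Ctgf. Without varenicline 6 the edgeR adjusted p of Nov was 0.0241, and over all alternatives it ran from 0.00301 to 0.997. In the KLF family 14 of 17 genes were tested, the selected members Klf2, Klf4 and Klf10 included. Of these, 8 were higher, those members among them, and 6 lower, with a median of 0.07 (0.01 without varenicline 6). No gene passed in either fit. Klf6 had -0.26 (edgeR adjusted p = 0.285) and Klf16 0.17 (edgeR adjusted p = 0.319).

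All 4 tested genes of the BTG and TOB family, antiproliferative partners of the deadenylase, had higher means, with a median of 0.21. The selected member Btg2 is among them. Without varenicline 6 there were 3 higher and 1 lower, which was Btg2, with a median of 0.14. Btg1 had 33.9 ± 3.71 and 41.9 ± 4.20 CPM and was above the saline mean in 6 of 6 libraries (log2 fold change 0.30, SE 0.08, edgeR adjusted p = 0.141, and 0.00827 without varenicline 6). Tob2 had 0.18 (adjusted p = 0.270) and Tob1 0.11 (adjusted p = 0.473). Over the alternatives the adjusted p of Btg1 ran from 0.00670 to 0.994. Ier3, a relative of Ier2 and Ier5 by name only, had -0.40 (adjusted p = 0.257), and Ier5l 0.10 (adjusted p = 0.706).

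Of 15 tested YAP and serum response factor targets, Ctgf included, 12 had higher and 3 lower means, with a median of 0.09 and none past the threshold in edgeR. Without varenicline 6, 1 was called higher: Vcl, which encodes the focal adhesion protein vinculin, had 0.27 (edgeR adjusted p = 0.132) and 0.28 without that library (adjusted p = 0.00513, and 0.00151 to 0.542 over all alternatives). Amotl2 had 0.16 (adjusted p = 0.303) and the Hippo kinase gene Lats2 0.17 (adjusted p = 0.349). Of 9 tested endothelial genes tied to Klf2 and Klf4, 5 were higher and 4 lower, with 0.55 for Angpt2, a vessel-destabilising ligand (1.12 ± 0.379 and 1.69 ± 0.212 CPM, adjusted p = 0.224), 0.09 for the sphingosine phosphate receptor gene S1pr1 (adjusted p = 0.368), 0.09 for the adhesion gene Vcam1 (adjusted p = 0.553) and -0.18 for Edn1, which encodes endothelin (adjusted p = 0.645). Of the 20 neuronal activity genes, 16 had higher and 4 lower means with a median of 0.26 and 0 passed; 4 of the higher and 3 of the lower had an unadjusted p under 0.05. The zinc finger gene Egr2 had 1.20 (5.19 ± 1.15 and 12.1 ± 6.52 CPM, edgeR adjusted p = 0.132; 1.08 and 0.0243 without varenicline 6) and the neurotrophin gene Bdnf -1.05 (10.8 ± 2.56 and 5.23 ± 3.52 CPM, adjusted p = 0.153; -1.44 and 0.00274 without varenicline 6). With the cortical score as a covariate Egr2 was at 1.77 (edgeR adjusted p = 0.0328) and Bdnf at -0.10 (edgeR adjusted p = 0.995). Over all alternatives the adjusted p ran from 0.000325 to 0.389 for Egr2 and from 0.00159 to 0.995 for Bdnf. Without varenicline 6, 1 of the 20 was called higher and 3 lower, with a median of 0.11. Of the 28 other rapidly induced genes, 18 had higher and 10 lower means with a median of 0.10, and 0 passed. The smallest adjusted p there was that of Rgs2, a brake on G protein signalling, with 0.46 (81.2 ± 8.53 and 111.6 ± 11.4 CPM, edgeR adjusted p = 0.0679, and 0.00144 without varenicline 6). Over all alternatives the adjusted p of Rgs2 ran from 9.14e-05 to 0.389. Tiparp came next with 0.53 (edgeR adjusted p = 0.131, and 0.00538 without varenicline 6), its adjusted p running from 0.000764 to 0.415 over all alternatives. The clock gene Per1 had 0.42 (edgeR adjusted p = 0.152). Without varenicline 6, 3 of the 28 were called higher and 1 lower, with a median of 0.02. In varenicline 6, 9 of the 20 neuronal activity genes (45%) reached their highest value of the 12 libraries. The same held for 10 of the 28 other rapidly induced genes (35.7%), 4 of the 16 endothelial (25%) and 1 of the 10 mural genes (10%). Over all genes tested the share was 9.93%.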

How the data were processed

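RNA from bilateral striatum was sequenced as single reads of 150 nt from TruSeq libraries, per the labels' protocols; the labels do not say whether a library is 1 mouse, so p-values describe only how these libraries vary, which may be technical. The submitters' processing notes name the build mm10, TopHat2, featureCounts, Cuffdiff, Cuffnorm, DESeq2, FastQC and Trimmomatic, in no order, and no versions. The authors deposited raw counts per gene, FPKM values, and a signal of scaled values that the file name credits to Cuffnorm. The counts were used for every main result, FPKM for levels between genes, and both other tables for alternatives. Whether counting used strand is not stated there; in GENCODE vM21 no other gene overlapped a member.

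Genes were kept by filterByExpr (15148 of 24421), scaled by TMM and fitted with edgeR 4.0.16 (quasi-likelihood F test, varenicline against saline, Benjamini-Hochberg over all genes, threshold 0.05); SE is the fold change divided by the root of F. CPM are TMM-scaled. Scores are mean log2 CPM with a prior count of 2, tested over all 924 assignments of the libraries (462 when 1 is left out). Correlations of group-centred values used 100000 permutations within groups. Alternatives used DESeq2 1.42.0, limma 3.58.1, other size factors, filters and units, covariates, and each library left out. R was 4.3.3. The edgeR script was tested on simulated data. A floor of 3 counts was 0.107 to 0.225 CPM, for counting error only. All 66 library pairs differed by more than sampling noise (lowest chi-square per degree of freedom 5.90). The 27 symbols that a spreadsheet had turned into dates were restored through their Ensembl identifiers.

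The members, the lists, the tests and the rule for naming genes were chosen with earlier results of these data known, and the promoter motifs after the counts were seen. Named are all members, up to 4 non-members per list by smallest edgeR p, of which some are left out here, and the genes with the highest group-centred r. Cldn5, Flt1 and Emx1 were picked as examples after their values were seen.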

Additional observations from a re-analysis of the deposited data

Results flagged for a closer look

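Of 78 sets of 6 values examined for the members, the 4 scores and the named list genes, 2 had 1 value well apart from the remaining 5. By chance about 1 set in 20, or 3.9 of these, would. Klf2 in varenicline 6 was at 3.69 log2 CPM, above the other varenicline libraries at 2.45 to 2.83. Vcam1 in saline 2 was at 5.10 log2 CPM, below the other saline libraries at 5.27 to 5.33.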

How the results depend on the processing

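No paired analysis was possible because the labels give all libraries the same replicate number. The count of called genes, 0 in the main fit, was 405 with DESeq2 (no adjusted p for 7614 genes), 2099 with limma-voom and sample weights, 12 with the cortical, 3 with the endothelial and 856 with the neuronal activity score as covariate, and 1586 with the last and without varenicline 6, a fit chosen after seeing the data. Leaving out 1 library gave 0 to 1628 calls, with 4 without varenicline 2 and 1628 without varenicline 6. The cortical score difference ran from -1.37 to -0.87 over the left-out libraries, and passed without varenicline 6 alone. The 1 correlation that passed became 0 with Spearman's rho, 0 without the 2 farthest libraries and 0 without varenicline 6. With values not centred on the group means 7 passed: the activity score with Apold1, Klf4, Klf10, Ier2 and Btg2, and the cortical score with Ier2 and Ier5. On log2 of FPKM plus 1, 4 passed: the activity score with Klf4 and Klf10, and the cortical score with Apold1 and Klf10. The cause was not tested. Of 208 recomputed fold changes of members, 9 moved by more than 1 SD, all with the cortical score as covariate. Smaller moves also changed the reading. Leaving out varenicline 6 alone moved Cyr61 from 0.79 to 0.49 (SE of the main fit 0.24) and Klf4 from 0.58 to 0.19 (0.31). It moved Ier2 from -0.21 to -0.61 (0.32) and Btg2 from 0.24 to -0.02 (0.22), each by more than that SE. Klf2 and Klf10 also fell below 0. Sample weights gave limma-voom fold changes of 0.14 for Apold1, 0.01 for Btg2 and -0.75 for Ier2. Depth limits Ier2 most, at 30 to 112 counts per library.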

Other observations

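The varenicline libraries spread more widely than the saline libraries for all 8 members by the coefficient of variation, and for all but Klf2 by the SD of log2 CPM (0.47 with saline and 0.44 with varenicline for Klf2). The coefficient of variation of CPM was 7.27% for Ier5 to 33.3% for Klf2 with saline, and 23.0% for Ier5 to 67.0% for Ier2 with varenicline. For Cyr61 it was 8.79% and 50.2%.

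Markers of other cell types also differed in mean between the groups, and none of these genes passed in edgeR with all 12 libraries. Striatal projection neuron markers had higher means with varenicline for 14 of 14 genes (5 called higher without varenicline 6), oligodendrocyte markers for 9 of 10 (5 called higher without it) and septal and pallidal markers for 7 of 8 (2 called higher without it). At an unadjusted p under 0.05 with all libraries these lists held 5, 4 and 6 higher genes. Over all genes tested, 52.3% had higher means and 7.26% were higher at that unadjusted edgeR p, and 3.55% were called higher without varenicline 6. Means were also higher for 7 of 7 choroid plexus, 8 of 9 astrocyte, 7 of 8 fibroblast and meninges and 7 of 10 microglia markers. They were higher for 6 of 10 mural, 7 of 16 endothelial and 1 of 14 cortical markers. The part of these differences in the members' values was not tested. The summed level of 7 choroid plexus markers ran from 82.4 to 1673 CPM with saline and from 94.2 to 1936 CPM with varenicline. The 4 alpha and beta haemoglobin genes of the blood list, which have near-identical copies, are listed at 0 counts in every library, so blood content was read from the erythroid gene Alas2 alone (4.88 to 8.25 CPM with saline, 6.53 to 9.91 CPM with varenicline).

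Without varenicline 6, a comparison chosen after seeing the data, the genes most like the 8 members by mean group-centred r were Ptger4, a prostaglandin receptor gene (0.57), Erp44 (0.56), Homez (0.55), the heat shock partner gene Dnajb1 (0.54), Smim11 (0.54) and Zfp420 (0.54). None of these 6 was among the 6 found with all 12 libraries.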
